A study of Mus musculus with 6 samples.

Results

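The genes that make prostaglandins and the genes of their receptors were followed in mouse aortic vascular smooth muscle cells (VSMCs) with and without Smyd2, which encodes a lysine methyltransferase. The set comprised 10 genes, taken by symbol: the cyclooxygenases Ptgs1 and Ptgs2, the prostacyclin synthase Ptgis, the prostaglandin E synthase Ptges, and the receptors Ptger1, Ptger2, Ptger3, Ptger4, Ptgir and Ptgfr. Of these, 9 were found among the 18112 genes listed, and Ptger2 was not analysed here.

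RNA was sequenced from 3 control libraries (labelled Flox, Smyd2 fl/fl) and 3 knockout libraries (labelled SMYD2 KO, Smyd2 SMC-/-) of primary VSMCs cultured from the aorta of C57BL/6 mice, young adults by the methods of the study. Both groups were homozygous for an allele with loxP sites around exon 2 of Smyd2, and the knockout mice also carried Cre under the Tagln (SM22α) promoter, which is active in smooth muscle and also in some other cell types. The labels give passage 6 and medium with 10% fetal bovine serum, while the methods describe an earlier passage, overnight starvation and another RNA extraction, and these accounts cannot be reconciled from the data. The labels do not say whether replicates came from separate animals or cultures, so that p-values measure only the spread between these samples, which may be technical. Expression was given as FPKM, the fragments of a gene relative to the length of its transcript and the fragments of the library. The steps between low FPKM values gave approximately 18250000, 20000000 and 19550000 fragments for control replicates 1, 2 and 3, and 17500000, 19950000 and 18850000 fragments for knockout replicates 1, 2 and 3.

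Prostaglandins are made from arachidonic acid, which phospholipases release from membranes. Cyclooxygenases turn it into prostaglandin H2, and terminal synthases turn that into prostacyclin, prostaglandin E2 and the other prostanoids, which act on G protein-coupled receptors. In the vessel wall, prostacyclin relaxes smooth muscle through a receptor that raises cAMP, while thromboxane A2, prostaglandin F2α and the EP1 receptor for prostaglandin E2 act through calcium.

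The targeted gene was examined first. Smyd2 was at 7.87, 3.10 and 3.0 FPKM in control replicates 1, 2 and 3 and at 1.67, 0.40 and 0.80 FPKM in knockout replicates 1, 2 and 3. All knockout libraries lay below all control libraries, with replicate 1 the highest of each group, in the direction of the labels. The log2 fold change of FPKM + 1, a scale that understates changes of low genes, was −1.48 ± 0.39 (SE, n = 3 per group), with an adjusted p of 0.105 by limma with Benjamini-Hochberg adjustment over all 12565 genes tested. With replicate number as a blocking factor, limma gave an adjusted p of 0.0189, and over 18 alternatives the adjusted p ran from 0.00126 to 0.305. Transcripts without exon 2 may still be counted toward this gene, and 30.0% of its exonic bases overlap Gm37422 on the opposite strand.

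The libraries did not vary by genotype alone. Both replicate 1 libraries stood apart from replicates 2 and 3, so the results are given with all 6 libraries and, where it matters, with a replicate block or with replicates 2 and 3 alone. The summed FPKM of 8 of 8 smooth muscle marker genes was 922, 821 and 814 in control replicates 1, 2 and 3 and 263, 429 and 376 in the knockout replicates, most of it from Acta2 (smooth muscle α-actin). Without Acta2 the other 7 summed to 161, 139 and 131 FPKM against 62.4, 161 and 114 FPKM, and the groups overlapped. Myh11, Myocd and Des, which define differentiated smooth muscle, were below 0.5 FPKM in every library, so that the labelled cell type rests on Acta2, Tagln, Cnn1, Smtn and Lmod1 here. Acta2 itself fell by 1.55 on the log2 scale (limma, Benjamini-Hochberg adjusted p = 0.00803), and lost the call without control replicate 2 or 3 or without knockout replicate 3, at adjusted p values of 0.0541, 0.0615 and 0.0533. It was the 1 of 5 tested smooth muscle markers that was called in either fit. Of all genes tested, 1.21% were called lower without the replicate block and 5.72% with it. The log2 fold changes of the others were −0.92 for Tagln, −0.91 for Cnn1, −0.050 for Smtn and 0.24 for Lmod1, at adjusted p values of 0.496, 0.399, 0.900 and 0.817 (limma, Benjamini-Hochberg, without the block), and the groups overlapped for each.

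Markers of other cells were present as well. The 8 adventitial fibroblast markers summed to 307, 943 and 810 FPKM in the control replicates and to 146, 731 and 712 FPKM in the knockout replicates, low in replicate 1 of both groups. Dcn (decorin) was the most abundant by mean over the 6 libraries, though not in any control library or in knockout replicate 1. The methods of the study describe stripping the adventitia from the aorta before culture, and checking the purity of each batch by staining for smooth muscle α-actin. The sum of the 5 mesothelial markers was also lowest in replicate 1 of both groups, at 61.3, 165 and 164 FPKM in the control replicates and 26.4, 177 and 97.6 FPKM in the knockout replicates, with Upk3b (uroplakin 3B) the most abundant by mean and Krt19 (keratin 19) the most abundant in each control library. Macrophage and leukocyte markers, 8 in all, summed to 42.7, 30.0 and 26.7 FPKM against 40.9, 18.3 and 22.8 FPKM, most of it Cd14, while Ptprc, Adgre1, Itgam and Fcgr1 were at or near 0 in every library. Endothelial markers summed to between 1.45 and 5.41 FPKM over the 8 genes, with Cdh5 and Tie1 at or near 0. Kdr was the most abundant of them by mean and in each knockout library, and Pecam1 in each control library: Kdr was at 0.47, 0.58 and 0.84 FPKM in the control replicates and 0.96, 5.15 and 2.96 FPKM in the knockout replicates, and Pecam1 was at 0.56, 0.88 and 0.92 FPKM against 0.12, 0.18 and 0 FPKM. Adipocyte markers, of which 2 of 4 had a row, were near 0, with Adipoq the higher by mean. Within these lists Dpt (dermatopontin, fibroblast list) was lower in the knockout cells by a log2 fold change of −5.28 and Krt19 (mesothelial list) by −2.10, with adjusted p values of 0.00417 and 0.0317 by limma with Benjamini-Hochberg adjustment. The call of Dpt held without each library in turn, whereas that of Krt19 was lost without control replicate 1, 2 or 3 or knockout replicate 3, at adjusted p values of 0.0607, 0.142, 0.144 and 0.138. Others of these lists went the other way. Col14a1 (collagen XIV, fibroblast list) was at 19.4 ± 11.2 FPKM in control and 141 ± 68.2 FPKM in knockout cells (SD, n = 3 each), with every knockout library above every control library and a log2 fold change of 2.87, and Upk3b was at 1.01, with adjusted p values of 0.0683 and 0.579 without and 0.00320 and 0.0491 with the block (limma, Benjamini-Hochberg). Lum (1.82) and Dcn (0.53) were higher by fold change and called in neither fit. Also lower were the fibroblast markers Cd34 (−2.85), Pdgfra (−1.66), Pi16 (−1.32) and Ly6a (−1.09) and the mesothelial markers Lrrn4 (−0.96) and Msln (−0.91). Pdgfra, Pi16, Lrrn4 and Msln were called in neither fit. Of 8 fibroblast markers, 5 had a log2 fold change below 0 and 3 above, with a median of −1.20. Of 4 tested mesothelial markers, 3 lay below 0 and 1 above, with a median of −0.93. In the blocked fit 1 of 8 fibroblast markers was called higher (Col14a1) and 3 lower (Dpt, Cd34 and Ly6a). Of 4 tested mesothelial markers, 1 was called higher (Upk3b) and 1 lower (Krt19). That fit called 4.72% of all genes tested higher and 5.72% lower. In either fit, limma called 0 of 1 tested endothelial and 0 of 4 tested macrophage and leukocyte markers. At an unadjusted limma p under 0.05 without the block, 1 and 1 of these passed, against 20.3% of all genes tested. In bulk RNA, fewer cells of a type and less RNA per cell cannot be told apart, and the part of these cells in the values below was not tested.

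**Figure D1:**
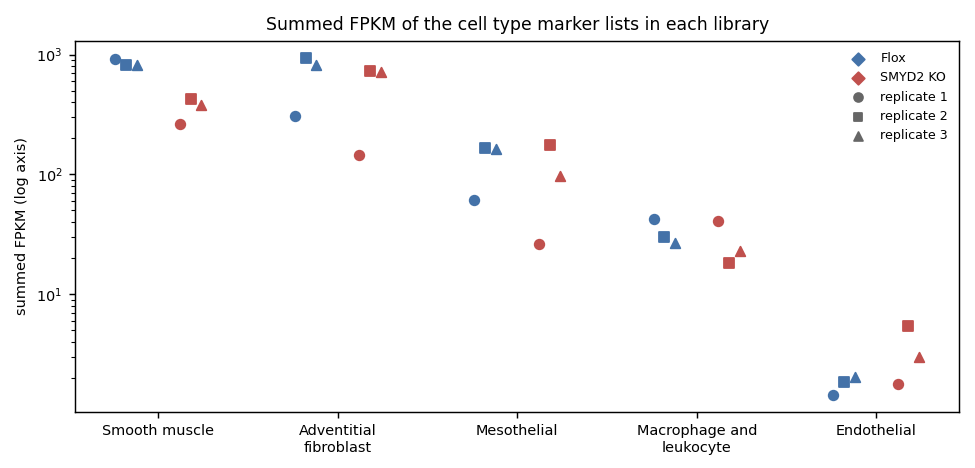
Summed FPKM of each cell type marker list (log axis) in the 6 libraries, with control libraries in blue, knockout libraries in red and the replicate number as the symbol. The smooth muscle sum, most of it from Acta2, was lower in all 3 knockout libraries and overlapped between groups without Acta2, and the fibroblast and mesothelial sums were lowest in the replicate 1 libraries of both groups.

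In the comparison of knockout with control VSMCs, no gene of the prostaglandin set passed the test without a replicate block, and Ptgis, the most abundant of them by mean, was higher in the knockout library of each same-numbered pair. A mean of at least 0.5 FPKM was reached by 5 of the 9 genes, Ptgs1, Ptgs2, Ptgis, Ptges and Ptger1, each of them in both groups, and 4 receptors were under it. Of the 5, 0 passed an adjusted p of 0.05 by limma with Benjamini-Hochberg adjustment, and 0 had an unadjusted p under 0.05, where 306 of the 12565 genes tested (2.44%; 1.23% higher and 1.21% lower) passed the first and 2556 the second. In the blocked fit, 1 of the 5 passed, Ptgis, where 1312 genes did (10.4%; 4.72% higher and 5.72% lower). That split depended on scaling: with the block and values rescaled to TPM, 1014 genes were called higher and 475 lower. In 1 of the 5 genes, Ptgs2, every knockout library lay below every control library, which was so for 15% of all genes tested, and none had every knockout library above, which was so for 13.1%, a total of 28.1% in either direction. The median log2 fold change of the 5 genes was 0.17, against −0.02 for all genes tested.

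By mean FPKM over the 6 libraries, the order of the set was Ptgis (159), Ptgs1 (51.0), Ptgs2 (22.9), Ptger1 (15.0), Ptges (3.68), Ptger4 (0.36), Ptger3 (0.23), Ptgir (0.19) and Ptgfr (0.028). The places of Ptgs2 and Ptger1 rest on control replicate 1, as Ptger1 was above Ptgs2 in the other 5 libraries. In that library Ptgis was below both Ptgs2 and Ptgs1. Among the last 4 genes the ranges over libraries overlapped, so that their order is within the spread.

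**Figure D2:**
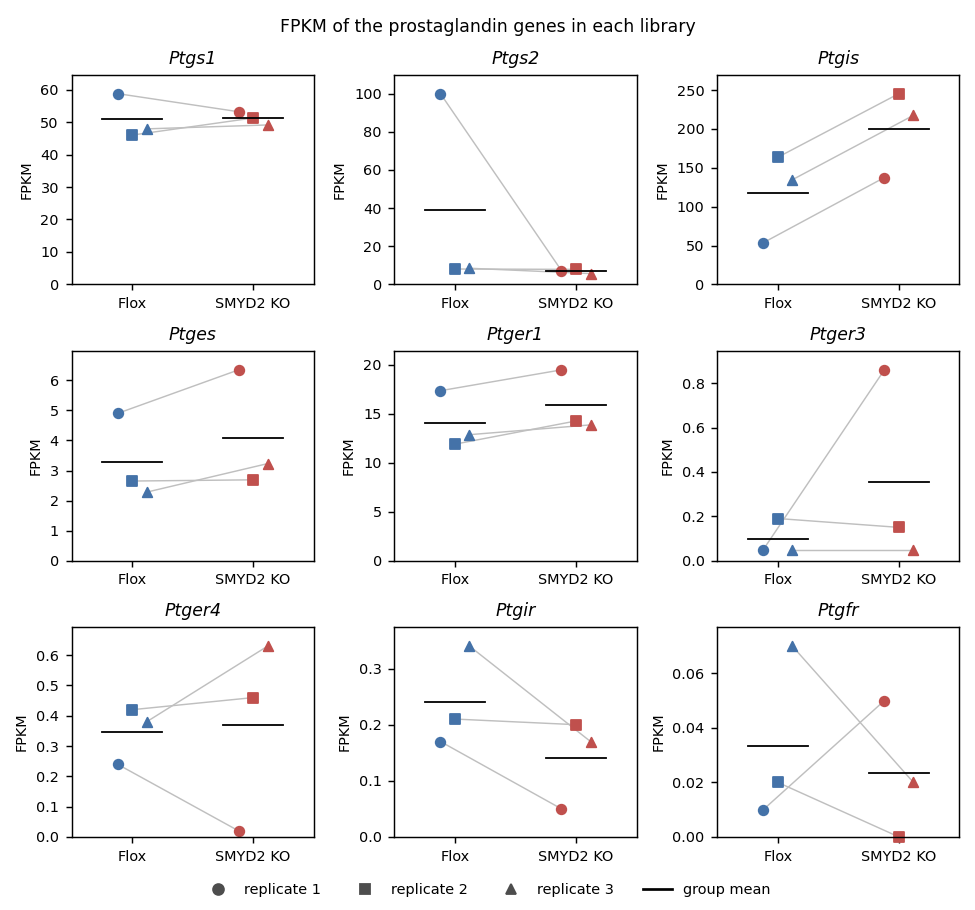
FPKM of the 9 prostaglandin genes in each library, with an axis of its own from 0 for every gene, the replicate number as the symbol, gray lines between same-numbered libraries and black bars at the group means. Ptgs2 was at 100.01 FPKM in control replicate 1 alone, and each line of Ptgis goes up from control to knockout.

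Ptgs1 encodes the cyclooxygenase that most cells make at a steady level. Its gene (NCBI Gene 19224) lies at chr2:36230426-36252272 on the plus strand of GRCm38. It was at 58.8, 46.0 and 47.9 FPKM in control replicates 1, 2 and 3 and at 53.2, 51.3 and 49.1 FPKM in knockout replicates 1, 2 and 3. All libraries were close to each other and the groups overlapped, with the highest library 1.28 times the lowest and the knockout library the higher in 2 of 3 same-numbered pairs. Group means were 50.9 ± 6.89 FPKM in control and 51.2 ± 2.04 FPKM in knockout cells (SD, n = 3 each), and the log2 fold change was 0.02 ± 0.13 (SE), with a 95% confidence interval of −0.31 to 0.34 and an adjusted p of 0.966 (limma, Benjamini-Hochberg). About 2563 to 3011 fragments per library lay behind these values.

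Ptgs2 encodes the inducible cyclooxygenase, which is switched on by growth factors, cytokines and serum. It lies at chr1:150100031-150108227 on the plus strand (NCBI Gene 19225). Ptgs2 was at 100.01, 8.07 and 8.47 FPKM in control replicates 1, 2 and 3 and at 7.25, 7.88 and 5.67 FPKM in knockout replicates 1, 2 and 3. A single library, control replicate 1, stood far above the rest, and although no knockout library reached a control library, knockout replicate 2 lay just under control replicate 2. The highest library was 17.6 times the lowest. The log2 fold change was −1.38 ± 0.91 (SE), with a 95% confidence interval of −3.56 to 0.79 and an adjusted p of 0.462 (limma, Benjamini-Hochberg), and the exact two-sided permutation test gave p = 0.1, the smallest that 3 against 3 libraries allow. Without control replicate 1 the log2 fold change was −0.23, and with replicates 2 and 3 alone it was −0.27, at limma adjusted p values of 0.507 and 0.227. Over 18 alternatives its adjusted p ran from 0.201 to 0.711 (limma, Benjamini-Hochberg).

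Relative to Ptgs1, the level of Ptgs2 was 1.70, 0.175 and 0.177 in control replicates 1, 2 and 3 and 0.136, 0.154 and 0.115 in knockout replicates 1, 2 and 3, as ratios of FPKM, which is per length. Ptgs2 was thus above Ptgs1 in control replicate 1 and well below it in each of the other 5 libraries. The exact permutation test of the log2 ratio gave p = 0.1, the smallest possible.

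The stretches before the annotated starts of these cyclooxygenase genes are shown because Ptgs2 varied more over libraries than Ptgs1, mostly through control replicate 1. They come from RefSeq on GRCm38.p6, where 8 of the 10 genes matched, and are the 250 bases before the start, 5′ to 3′ on the gene's strand, at chr2:36230176-36230425 (plus strand) for Ptgs1 and at chr1:150099781-150100030 (plus strand) for Ptgs2. Capitals mark matches to any of 7 motifs, searched on both strands from 250 bases before to 50 after the start.
Ptgs1: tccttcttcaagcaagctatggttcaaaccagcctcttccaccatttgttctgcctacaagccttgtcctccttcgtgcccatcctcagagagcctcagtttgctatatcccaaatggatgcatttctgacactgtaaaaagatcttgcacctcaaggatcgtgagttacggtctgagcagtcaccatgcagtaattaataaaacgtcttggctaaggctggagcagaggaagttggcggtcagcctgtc
Ptgs2: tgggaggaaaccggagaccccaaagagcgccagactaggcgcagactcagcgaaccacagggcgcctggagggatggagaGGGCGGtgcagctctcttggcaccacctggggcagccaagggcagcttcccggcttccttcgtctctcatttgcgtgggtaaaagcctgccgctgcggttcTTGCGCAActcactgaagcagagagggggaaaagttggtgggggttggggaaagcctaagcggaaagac
The motifs, chosen with the sequences known, were TATAAA (core promoter motif, in 13.6% of all 32851 promoter windows of the same length), TGACGT (core of the cAMP response element, 7.5%), CACGTG (E-box, 7.2%), TTGCGCAA (C/EBP, 0.2%), GGGCGG (GC box, 35.7%), TGANTCA (AP-1, 7.8%) and the CArG box (1.6%). The window of Ptgs2 held GGGCGG at −170 to −165 and TTGCGCAA at −69 to −62 before the start. After the start it held TGACGT at bases 13 to 18 and CACGTG at bases 17 to 22, which overlap and lie within the annotated transcript. None of the 7 motifs matched in the window of Ptgs1, and G and C made up 48.0% of its 250 bases before the start, against 61.6% for Ptgs2. GGGCGG also matched in the windows of Ptges, Ptgfr, Ptger3, Ptgir and Ptger4. A match is a description of the letters, and no factor was measured at these places.

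Ptgis encodes prostacyclin synthase, the enzyme for the prostanoid that relaxes vessels and restrains platelets. It lies at chr2:167191805-167240604 on the minus strand (NCBI Gene 19223). Ptgis was at 53.6, 164 and 135 FPKM in control replicates 1, 2 and 3 and at 137, 245 and 218 FPKM in knockout replicates 1, 2 and 3. Replicate 1 was the lowest library of each group, and the groups overlapped because knockout replicate 1 fell between control replicates 2 and 3. Within same-numbered pairs the knockout library was higher in 3 of 3, by ratios of 2.56, 1.5 and 1.62.

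Group means of Ptgis were 117 ± 57.0 FPKM in control and 200.1 ± 56.0 FPKM in knockout cells (SD, n = 3 each). With all 6 libraries and no block, the log2 fold change was 0.87 ± 0.44 (SE), with a 95% confidence interval of −0.19 to 1.93 and an adjusted p of 0.329 (limma, Benjamini-Hochberg), and the exact permutation test gave p = 0.2. Under the replicate block the same fold change had a standard error of 0.18, an interval of 0.42 to 1.32 and an adjusted p of 0.0454 (limma, Benjamini-Hochberg). Without control replicate 1 and without the block, the log2 fold change was 0.39 at an adjusted p of 0.494 (limma, Benjamini-Hochberg). Replicates 2 and 3 alone gave 0.64 at an adjusted p of 0.0127 (limma, Benjamini-Hochberg), in a fit that called 29% of all genes tested. The block on pairs 1 and 3 or on pairs 1 and 2 gave 1.01 and 0.96 at adjusted p values of 0.0896 and 0.169 (limma, Benjamini-Hochberg). The blocked call was thus lost without pair 2 and without pair 3, and over 18 alternatives the limma adjusted p ran from 0.0127 to 0.617. Ptgis stood in the 91.6th to 98.7th percentile of all listed genes, with about 2003 to 9828 fragments per library. The replicate order of Ptgis, lowest in replicate 1, was also that of the fibroblast and mesothelial sums, but not of every marker in them. Dcn, Ly6a, Cd34, Col14a1, Lum and Pi16 were lowest in replicate 1 of both groups. Dpt was highest there in both groups, Pdgfra was highest in knockout replicate 1, and Krt19 in knockout cells was lowest in replicate 3. The methods describe removal of the adventitia before culture, and the part of fibroblast and mesothelial cells in the level of Ptgis was not tested.

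Ptges encodes microsomal prostaglandin E synthase 1, which is often induced along with Ptgs2. The gene spans chr2:30889471-30929863 on the minus strand (NCBI Gene 64292). It was at 4.90, 2.65 and 2.28 FPKM in control replicates 1, 2 and 3 and at 6.35, 2.69 and 3.23 FPKM in knockout replicates 1, 2 and 3. Here replicate 1 was the highest of each group, and the groups overlapped, while the knockout library was the higher in 3 of 3 same-numbered pairs, by ratios of 1.30, 1.02 and 1.42. The log2 fold change was 0.23 ± 0.34 (SE), with a 95% confidence interval of −0.58 to 1.05 and an adjusted p of 0.766 (limma, Benjamini-Hochberg), and its sign turned in the unblocked fit without knockout replicate 1, at −0.065, and in no blocked fit. About 160 to 396 fragments per library lay behind these values.

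As a ratio of FPKM, Ptgis over Ptges was 10.9, 61.7 and 59.1 in control replicates 1, 2 and 3 and 21.6, 91.2 and 67.3 in knockout replicates 1, 2 and 3. Ptgis was thus more abundant than Ptges in every library, least so in the replicate 1 libraries. Ptges3, another prostaglandin E synthase gene, was above Ptgis in control replicate 1 (102 against 53.6 FPKM) and below it in the other libraries. The groups overlapped (exact permutation test, p = 0.5), and the ratio was higher in the knockout library in 3 of 3 same-numbered pairs.

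**Figure D3:**
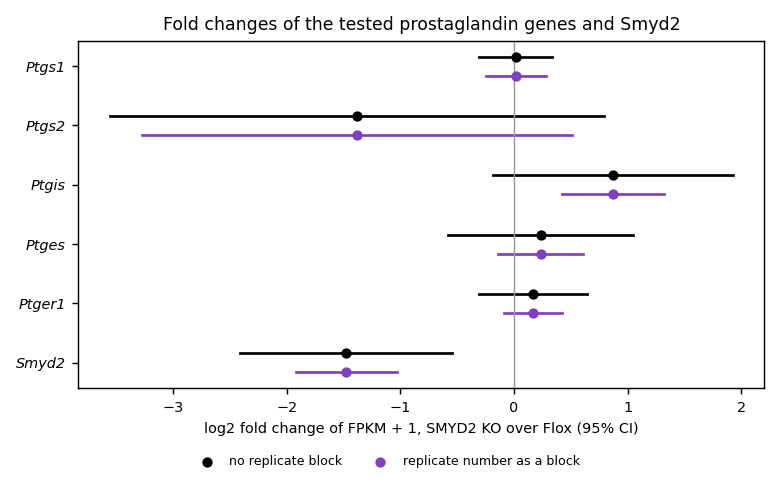
Log2 fold change of FPKM + 1, knockout over control, with its 95% confidence interval for the 5 tested prostaglandin genes and Smyd2, from limma unblocked (black) and blocked on replicate number (purple). The interval of Ptgis spans 0 without the block (−0.19 to 1.93) and lies above 0 with it (0.42 to 1.32), and the interval of Ptgs2 is the widest (−3.56 to 0.79 without the block).

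Of the receptors, Ptger1 alone passed the filter on low values. It encodes EP1, the prostaglandin E2 receptor that acts through calcium, and lies at chr8:83666678-83672753 on the plus strand (NCBI Gene 19216). It was at 17.4, 11.9 and 12.9 FPKM in control replicates 1, 2 and 3 and at 19.5, 14.3 and 13.9 FPKM in knockout replicates 1, 2 and 3. Replicate 1 was highest in each group, the groups overlapped, and the knockout library was the higher in each same-numbered pair, by ratios of 1.12, 1.2 and 1.08. The log2 fold change was 0.17 ± 0.20 (SE), with a 95% confidence interval of −0.31 to 0.65 and an adjusted p of 0.706 (limma, Benjamini-Hochberg). It was 0.020 without knockout replicate 1 and 0.32 without control replicate 1.

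The counting of fragments is not stated to use strand, so that where a gene overlaps a transcript of the other strand, the reads of both cannot be told apart. Overlaps are given here for Smyd2 and Ptger4 only, and that none is given for another gene, Ptger1 among them, does not show that it has none.

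The remaining receptors were near the lower limit of the measurement, where 1 fragment on a transcript of 2000 bases was worth 0.026 to 0.030 FPKM. Ptger4 encodes EP4, a receptor that raises cAMP, and it was at 0.24, 0.42 and 0.38 FPKM in control replicates 1, 2 and 3 and at 0.02, 0.46 and 0.63 FPKM in knockout replicates 1, 2 and 3, or about 1 to 39 fragments. Ptgir encodes the prostacyclin receptor and was at 0.17, 0.21 and 0.34 FPKM against 0.05, 0.20 and 0.17 FPKM, or about 3 to 22 fragments. In both genes replicate 1 of the knockout cells was the lowest library and the groups overlapped. The knockout library was the higher in 2 of 3 same-numbered pairs for Ptger4 and in 0 of 3 for Ptgir, which in replicate 2 differed by 0.01 FPKM.

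Ptger3 encodes EP3, which lowers cAMP, and was at 0.05, 0.19 and 0.05 FPKM in control replicates 1, 2 and 3 and at 0.86, 0.15 and 0.05 FPKM in knockout replicates 1, 2 and 3, or about 3 to 46 fragments. Knockout replicate 1 stood alone, and the other 5 libraries overlapped. Ptgfr, the prostaglandin F2α receptor gene, was at 0.01, 0.02 and 0.07 FPKM in the control replicates and at 0.05, 0 and 0.02 FPKM in the knockout replicates, at most about 9 fragments, with no order by group. The exact permutation tests of these 4 genes gave p values of 1.0 for Ptger4, 0.3 for Ptgir, 0.7 for Ptger3 and 0.7 for Ptgfr. These tests leave the pairs out of account and cannot go below 0.1, so that neither a difference nor its absence is shown for these receptors. The annotation puts Ptger4 at chr15:5206661-5244187 (minus strand; 15.3% of its exonic bases overlap Gm15937 on the other strand), Ptgir at chr7:16906490-16910905 (plus), Ptger3 at chr3:157566892-157645888 (plus) and Ptgfr at chr3:151796502-151837630 (minus).

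Next, the genes with the closest pattern over the 6 libraries were sought for Ptgis, the most abundant by mean, and for Ptgs2. With all 6 libraries Ptgs2 had the largest fold change in size, but without control replicate 1 it was smaller (−0.23) than that of Ptgis (0.39). The search covered 11714 genes that averaged 1 FPKM or more. It used the root mean square difference of log2(FPKM + 1) after subtraction of each gene's mean. Closest to Ptgis were Sdc1, which encodes the proteoglycan syndecan-1, at 0.08, then Serinc5 and Ptk7, both at 0.15. Sdc1 was at 12.7, 38.3 and 36.3 FPKM in control replicates 1, 2 and 3 and at 32.6, 57.5 and 50 FPKM in knockout replicates 1, 2 and 3. Like Ptgis, it was low in control replicate 1 and similar between knockout replicate 1 and the other control libraries.

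Closest to Ptgs2 were Ereg, which encodes the growth factor epiregulin, at 0.15, the unnamed locus BGI_novel_G000304 at 0.17, and Fosl1, which encodes an AP-1 subunit, at 0.20. Ereg was at 28.6, 2.64 and 2.53 FPKM in the control replicates and at 2.06, 2.33 and 1.59 FPKM in the knockout replicates, and Fosl1 was at 54.9, 6.18 and 6.67 FPKM against 4.25, 5.48 and 3.08 FPKM. Control replicate 1 was thus high in all 3 and the other 5 libraries were low, as for Ptgs2. These likenesses rest on 6 libraries and describe them only.

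**Figure D4:**
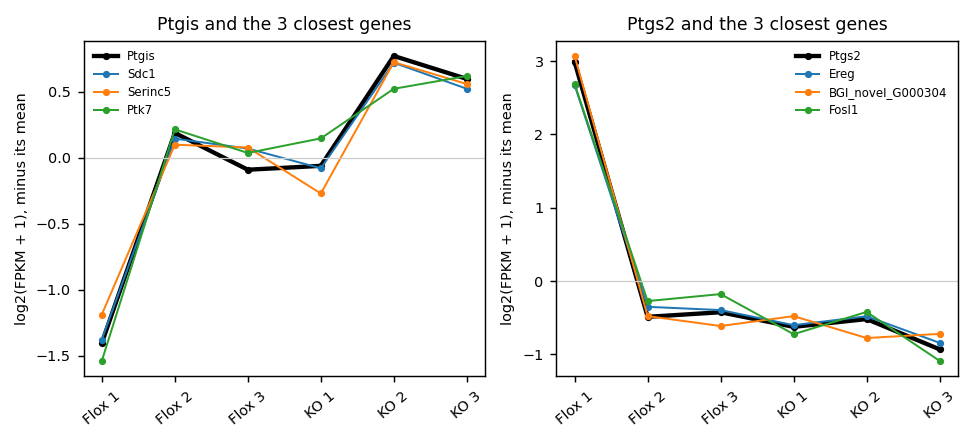
Log2(FPKM + 1) minus its mean over the 6 libraries for Ptgis (left) and Ptgs2 (right), each in black with the 3 genes of the smallest root mean square difference. Ptgis and its neighbours are lowest in control replicate 1, and Ptgs2 and its neighbours are high in control replicate 1 only.

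The rest of the prostanoid pathway was read from 8 lists with 88 gene symbols in all, of which 82 had a row and 65 passed the filter. Of these 65 genes, 1 was called higher (Pde3a) and 1 lower (Pde4d) by limma with Benjamini-Hochberg adjustment. Both reached the filter's mean of 0.5 FPKM only through the group where they were high, as did Fam213b and Ptgds, so that the counts over tested genes are no support for a change of the pathway. Of the other 61 genes, 0 were called without the block. With the block 4 of 65 were called higher and 5 lower (3 and 4 of the 61), where 4.72% and 5.72% of all genes tested were. Without the block, 16 of 65 had an unadjusted limma p under 0.05, against 20.3% of all genes tested. With replicates 2 and 3 alone 20 of 65 were called (limma, Benjamini-Hochberg), against 29% of all.

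Upstream of the cyclooxygenases, the list held genes of phospholipases and of a phospholipase-activating protein. Of its 6 tested genes 0 were called (0 also at an unadjusted limma p under 0.05), with a median log2 fold change of −0.06. The most abundant by mean were Pla2g4a, the cytosolic phospholipase A2 that releases arachidonic acid, at 25.1 ± 3.6 FPKM in control and 21.3 ± 1.37 FPKM in knockout cells, and Pla2g6 at 12.8 ± 2.08 and 17.5 ± 6.86 FPKM (SD, n = 3 each). Among 6 other synthases, 0 were called without the block (4 at an unadjusted limma p under 0.05, against 20.3% of all genes tested). Ptges3, which encodes the cytosolic prostaglandin E synthase and HSP90 cochaperone p23, was at 102, 94.4 and 76.9 FPKM in control replicates 1, 2 and 3 and at 70.5, 60.1 and 60.4 FPKM in knockout replicates 1, 2 and 3. All knockout libraries lay below all control libraries, with a log2 fold change of −0.50 and adjusted p values of 0.134 without and 0.0476 with the block (limma, Benjamini-Hochberg). In the other direction, Fam213b (prostamide and prostaglandin F synthase), Ptgds (prostaglandin D synthase) and Cbr1 (carbonyl reductase 1) had every knockout library above every control library, with log2 fold changes of 1.09, 0.66 and 0.34, and were not called (limma, Benjamini-Hochberg adjusted p = 0.127, 0.163 and 0.183 without the block). Fam213b (0.07 FPKM in control and 1.40 FPKM in knockout cells, by group means) and Ptgds (0.27 and 0.97 FPKM) reached the filter through the knockout cells only, and their control libraries held about 0 to 2 and 1 to 9 fragments. Akr1b3, aldose reductase, which can also make prostaglandin F2α, was at 1222 FPKM in control replicate 1 and between 68.8 and 127 FPKM in the other 5 libraries, so that control replicate 1 was high for this gene as for Ptgs2.

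For the other receptors, 0 of 2 tested genes were called without the block, with a median of 0.60. An unadjusted limma p under 0.05 was reached by 1 of the 2, against 20.3% of all genes tested. Tbxa2r, the thromboxane A2 receptor gene, was at 1.01, 1.13 and 0.91 FPKM in control replicates 1, 2 and 3 and at 1.90, 3.72 and 3.6 FPKM in knockout replicates 1, 2 and 3. Every knockout library lay above every control library, with a log2 fold change of 0.98 and adjusted p values of 0.0808 without and 0.0458 with the block (limma, Benjamini-Hochberg). The other, Ptgfrn, which encodes a partner protein of the F2α receptor, was at 19.3 ± 6.42 and 23.0 ± 9.24 FPKM (SD, n = 3 each).

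Transport and inactivation had 0 of 5 genes called (0 at an unadjusted limma p under 0.05), with a median of 0.0045. Slco2a1, the prostaglandin transporter, was at 80.2 ± 30.9 FPKM in control and 82.3 ± 36.3 FPKM in knockout cells (SD, n = 3 each), and Hpgd, the enzyme that starts the inactivation of prostaglandins, was at most 0.06 FPKM. The lipoxygenase and epoxide branches use the same arachidonic acid. They had 0 of 4 genes called (1 at an unadjusted limma p under 0.05, against 20.3% of all), with a median of −0.14. Their most abundant genes were Ephx1, a microsomal epoxide hydrolase, at 378 ± 77.7 and 389 ± 48.3 FPKM, and Lta4h, leukotriene A4 hydrolase, at 50.4 ± 6.25 and 37.6 ± 10.9 FPKM (SD, n = 3 each).

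In the Gs and cAMP arm, through which the prostacyclin, EP2 and EP4 receptors act, 1 of 19 genes was called higher and 1 lower. The shares over all genes tested were 1.23% higher and 1.21% lower without the block. Pde3a, a phosphodiesterase that degrades cAMP, was at 0.15, 0.16 and 0.24 FPKM in control replicates 1, 2 and 3 and at 1.00, 1.56 and 1.34 FPKM in knockout replicates 1, 2 and 3. Pde4d, a cAMP phosphodiesterase of another family, was at 1.45, 1.48 and 1.33 FPKM in the control replicates and at 0.39, 0.18 and 0.21 FPKM in the knockout replicates. The groups did not overlap for either gene, and the directions were opposite. Log2 fold changes were 0.95 for Pde3a and −0.94 for Pde4d, with adjusted p values of 0.0493 and 0.0437 (limma, Benjamini-Hochberg). Both genes had a mean under 1 FPKM and reached the filter through 1 group only, Pde3a through the knockout cells (group means 0.18 and 1.30 FPKM, control and knockout) and Pde4d through the control cells (1.42 and 0.26 FPKM). With no filter on low values the adjusted p values were 0.0412 and 0.0357 (limma, Benjamini-Hochberg), an alternative added after seeing the data. Both calls were lost without control replicate 1, 2 or 3 or knockout replicate 2 or 3, with adjusted p values up to 0.213 and 0.20 by limma. With the block, Adcy3, an adenylyl cyclase gene, was also called, at 0.51, 1.64 and 1.87 FPKM against 1.28, 3.20 and 3.89 FPKM and an adjusted p of 0.0476 (0.373 without the block; limma, Benjamini-Hochberg). The stimulatory G protein gene Gnas was the most abundant of the arm, at 721 ± 23.7 FPKM in control and 673 ± 46.8 FPKM in knockout cells (SD, n = 3 each).

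In the Gq and calcium arm, through which EP1 and the receptors of thromboxane and prostaglandin F2α act, the median of 9 genes was −0.20. Without the block 0 of the 9 were called (3 at an unadjusted limma p under 0.05, against 20.3% of all genes tested). With the block 2 were called lower, against 5.72% of all. Gnaq, the G protein subunit that gives the arm its name, was at 38.0, 28.9 and 30.2 FPKM in control replicates 1, 2 and 3 and at 21.5, 19.8 and 21.8 FPKM in knockout replicates 1, 2 and 3. Plcb3, a phospholipase C that it activates, was at 47.3, 38.2 and 40.9 FPKM against 30.4, 20.6 and 26.2 FPKM. In both genes all knockout libraries lay below all control libraries, and the adjusted p values were 0.0847 for Gnaq and 0.0896 for Plcb3 without the block and 0.0413 and 0.0261 with it (limma, Benjamini-Hochberg).

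Among 15 genes known to regulate Ptgs2 transcription or mRNA, 0 were called without the block, with a median of 0.0036. An unadjusted limma p under 0.05 was reached by 5 of the 15, against 20.3% of all genes tested. With the block 1 was called higher and 1 lower, against 4.72% and 5.72% of all. Egr1, an immediate early transcription factor, was at 20.02, 37.1 and 36.3 FPKM in control replicates 1, 2 and 3 and at 47.9, 69.5 and 70.6 FPKM in knockout replicates 1, 2 and 3. Rela, the p65 subunit of NF-κB, was at 102, 80.5 and 77.1 FPKM against 59.7, 49.8 and 55.2 FPKM. The groups did not overlap for either gene, and replicate 1 was the lowest library of each group for Egr1 and the highest for Rela. Adjusted p values were 0.116 for Egr1 and 0.0816 for Rela without the block and 0.0168 and 0.0320 with it (limma, Benjamini-Hochberg). The 7 genes of these lists that were called with the block but not without it were all called with replicates 2 and 3 alone as well, and 2 of them, Tbxa2r and Plcb3, also without knockout replicate 1 (limma, Benjamini-Hochberg adjusted p = 0.0182 and 0.04999). Over 8 alternatives the limma adjusted p values of the 7 genes lay between 0.000603 and 0.721. Cebpb and Cebpd, whose products bind the C/EBP motif shown for Ptgs2, were at 47.7 ± 6.95 and 58.1 ± 10.8 FPKM and at 51.5 ± 30.5 and 94.8 ± 41.6 FPKM (SD, n = 3 each). For both the knockout library was the higher in 3 of 3 same-numbered pairs and the groups overlapped, with log2 fold changes of 0.27 and 1.02 and adjusted p values of 0.482 and 0.382 without and 0.191 and 0.124 with the block (limma, Benjamini-Hochberg). Cebpd was the most abundant of the list by mean.

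**Figure D5:**
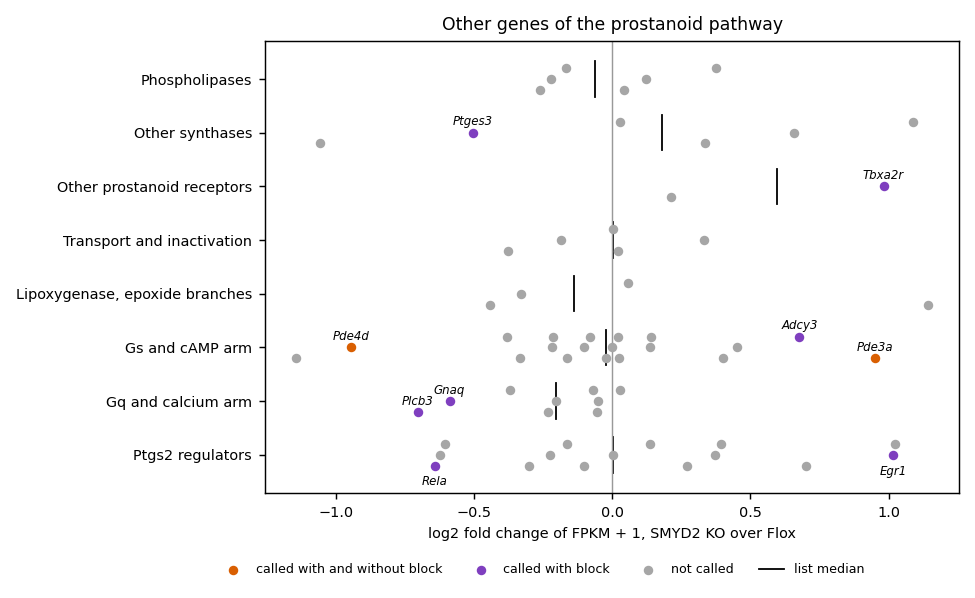
Log2 fold change of FPKM + 1, knockout over control, for the tested genes of the 8 pathway lists, 1 point per gene, with the list median as a black bar. Orange points (Pde3a and Pde4d) were called with and without the replicate block, purple points with the block but not without it, and gray points in neither.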

How the data were processed

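Control and knockout VSMCs (3 libraries each) were grouped by their labels. From paired-end reads of poly-A RNA, the authors mapped fragments with HISAT and Bowtie2 and deposited gene expression as FPKM calculated with RSEM. Versions and genome build are not given in the sources used here. RSEM shares out reads that match several genes, and whether counting used strand is not stated. Of 18112 genes listed, 1125 had no symbol.

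Values were transformed to log2(FPKM + 1), with 1 as the pseudocount. The 12565 genes that averaged 0.5 FPKM or more were tested with limma 3.58.1 in R 4.3.3 (trend, robust eBayes, Benjamini-Hochberg adjustment, called at 0.05), and single values with two-sided exact permutation tests, where 3 against 3 libraries cannot go below 0.1. The fit was first run on simulated data with independent noise in each library. Those data held no effect shared by same-numbered libraries, so that the fit was not tested under such an effect. Same-numbered libraries, paired by the labels' replicate numbers, deviated from their group means together (correlation 0.615, 0.460 and 0.528 over genes), and a replicate block was fitted as well. Control replicate 2 with knockout replicate 3 gave 0.461 and control 3 with knockout 2 gave 0.439, while replicate 1 with other numbers gave −0.557 to −0.508, so that these values set replicate 1 apart and do not pair 2 with 2 or 3 with 3.

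Library depth was estimated from low FPKM, of which 70.4% to 74.0% lay within 0.15 of a whole fragment, and fragments per gene from it and the longest listed transcript. These numbers are approximate. Positions and the overlaps of Smyd2 and Ptger4 come from GENCODE M21 on GRCm38, and promoters from RefSeq GRCm38.p6. Named were the prostaglandin genes, Smyd2, genes called in the lists with or without the block, up to 2 abundant genes of each list, and marker genes that lead or define a list. Hpgd, Cebpb, Cebpd, Tagln, Cnn1, Smtn, Lmod1, Dpt, Krt19, Col14a1, Lum, Pecam1, Cd34, Ly6a, Pdgfra, Pi16, Lrrn4, Msln, Fam213b, Ptgds and Cbr1 were named with their values known. The genes and lists were chosen with earlier results of these data known. Alternatives were another pseudocount, other filters, blocks, single libraries left out, TPM, quantile normalization, the cutoffs of the study's methods and no robust eBayes. Python 3.11.15 with numpy 2.4.6, pandas 2.3.3, scipy 1.17.1 and matplotlib 3.10.9 did the rest.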

Additional observations from a re-analysis of the deposited data

How the results depend on the processing

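The number of genes called, 306, became 1312 with the replicate block, 2550 with a block of replicate 1 against 2 and 3, 3650 with replicates 2 and 3 alone, 53 with the cutoffs of the study's methods, and 34 to 686 without 1 library. Alternatives added after seeing the data gave 1489 with the block and TPM (1014 higher and 475 lower, against 593 and 719 with the block alone), 204 with the block on pairs 1 and 3 and 92 with the block on pairs 1 and 2. The count of prostaglandin genes called, 0, became 1 (Ptgis) with the block, the block of replicate 1, the block and TPM, and replicates 2 and 3 alone, at log2 fold changes of 0.87, 0.87, 1.00 and 0.64. The block changed no other call in the set. Smyd2 passed in the same 4 fits, at −1.48, −1.48, −1.77 and −1.35. Ptgs1 turned sign with the block on pairs 1 and 3 (−0.053) and without control replicate 2, control replicate 3 or knockout replicate 1 (−0.052, −0.023 and −0.012), within a range of −0.052 to 0.12 without 1 library, and Ptges without knockout replicate 1 (−0.065, within −0.065 to 0.49). Without 1 library, Ptgs2 ran from −1.97 to −0.23 and Ptgis from 0.39 (without control replicate 1) to 1.18. Ptger1 ran from 0.020 (without knockout replicate 1) to 0.32. Ptgs2, Ptgis and Ptger1 each kept their direction in all 18 alternatives. Pathway genes called, 2, became 9 with the block, 20 with replicates 2 and 3 alone, and 0 to 6 without 1 library. TPM moved the median of all genes by 0.11 and the calls from 154 higher and 152 lower to 247 and 99, and relative to that median Ptgis was at 0.89 as deposited and 0.90 in TPM. Apart from the fewer samples or genes that some alternatives leave, the cause of these changes was not tested. Ptger3, Ptger4, Ptgir and Ptgfr had at most about 46 fragments in any library.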
